A study of Cavia porcellus with 30 samples.

Results

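Mercuric chloride is an inorganic mercury salt. Inorganic mercury accumulates in the kidney, mainly in the cells of the proximal tubule, which reabsorb most of the filtered water, sugar and amino acids. The metal binds thiol groups of proteins and of glutathione, and damaged tubule cells can either recover and repair the tubule or die. A set of kidney transcripts is described here that was lower soon after either of 2 doses, was close to the vehicle level on the next day after the low dose, and was still low on the next day after the high dose.

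The animals were 30 male Hartley guinea pigs, bought at 4 weeks of age, that received a single intraperitoneal injection of saline vehicle, 1.00 mg/kg mercuric chloride (low dose) or 1.50 mg/kg mercuric chloride (high dose). Kidneys were taken 9 or 33 h later from 5 animals of each of the 6 groups, all with food withheld on the day of sampling. Poly-A RNA of powdered whole kidney was sequenced, and the abundance of 25824 Ensembl transcripts was given as TPM, a level per transcript scaled for transcript length and library size. Animals are named by the numbers that end their labels. Animals 31, 32 and 58 to 60 were the 9 h vehicle group, 33 to 37 low dose at 9 h, 38 to 42 high dose at 9 h, 43 to 47 vehicle at 33 h, 48 to 52 low dose at 33 h and 53 to 57 high dose at 33 h. Total estimated counts per animal ranged from 23134713 to 36072327.

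The members were chosen by their measured values. For each treated group, the mean TPM plus 1 was divided by the mean TPM plus 1 of the vehicle animals of the same time, and the log2 of this ratio is called L below. A member had an L of at most -0.58 in 3 groups (both doses at 9 h, high dose at 33 h) and an L between -0.3 and 0.3 at 33 h with the low dose. Of the 25824 transcripts, 305 had the 3 falls and 55 of these were inside the low-dose limits at 33 h. Of the other transcripts with the 3 falls, 142 were also at or below -0.58 with the low dose at 33 h, 107 lay between -0.58 and -0.3, and 1 was above 0.3. Every comparison of a treated group with its vehicle group was therefore used in the choice, and its values are given as a description.

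The deposited tables hold transcript identifiers without gene names, and the reference table at hand (assembly mCavPor4.1) matched none of them, so members are named by identifier and their functions are not described. Kidney and other cell type markers were not looked up, and the labelled tissue was not checked with them. Through the readable part of the study's supplementary gene list, 2505 of all 25824 transcripts (9.70%) could be paired with an Ensembl gene and a rat gene identifier. Of the 55 members, 5 could be so paired. These were ENSCPOT00000045833.1 (gene ENSCPOG00000034915, rat gene ID 314198), ENSCPOT00000022231.2 (ENSCPOG00000026202, 688553), ENSCPOT00000042660.1 (ENSCPOG00000032526, 362423), ENSCPOT00000042690.1 (ENSCPOG00000031157, 29318) and ENSCPOT00000033579.1 (ENSCPOG00000008973, 314280).

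The members spanned a wide range of levels in vehicle kidney. Their mean TPM over the 10 vehicle animals ran from 1.09 to 385 with a median of 17.7, beside a median of 7.09 over the 19729 transcripts with enough counts to be tested. At least 50 TPM was reached by 18 members and at least 10 TPM by 37, while 12 were under 5 TPM. The transcripts were 213 to 5527 bases long with a median of 1578, beside 2506 over all transcripts tested. In 6 members at least 1 animal had an estimated count of 0.

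With the low dose at 9 h, L of the 55 members ran from -1.91 to -0.58 with a median of -0.72. After the high dose it ran from -2.53 to -0.67 at 9 h (median -0.96) and from -2.98 to -0.58 at 33 h (median -0.89). With the low dose at 33 h it ran from -0.29 to 0.17 with a median of -0.19. The medians of L over all transcripts tested were 0.08, 0.06, 0.03 and -0.02 in the order of the groups above. An L of -1 or less was seen in 13 members in low-dose animals at 9 h, and in high-dose animals in 25 members at 9 h and 24 at 33 h. RNA of whole kidney does not separate fewer cells of a type from less RNA per cell.

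**Figure D1:**
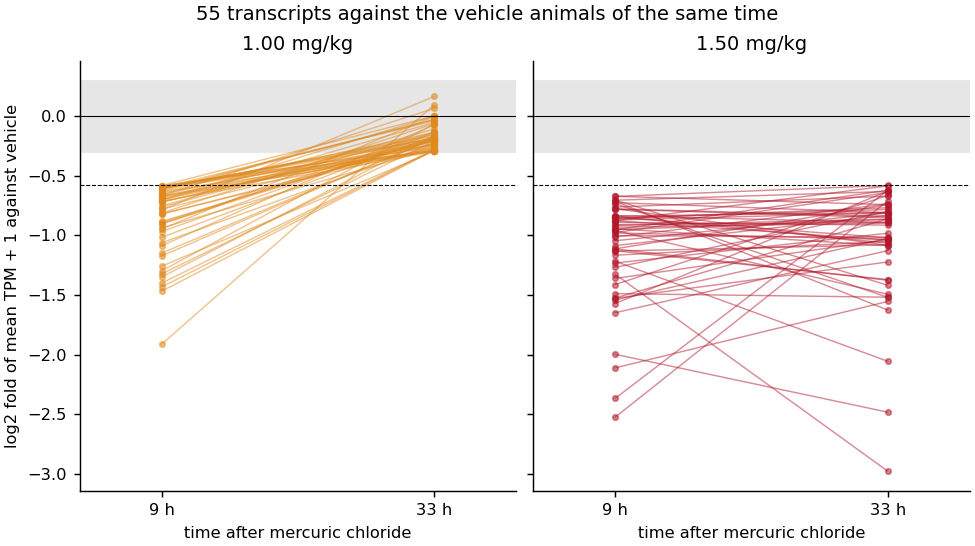
L of each of the 55 transcripts (log2 of mean TPM plus 1 against the vehicle mean of the same time plus 1) at 9 and 33 h, for 1.00 mg/kg on the left and 1.50 mg/kg on the right; 1 line is 1 transcript, the dashed line is the limit for a fall at -0.58 and the grey band is the range from -0.3 to 0.3. All low-dose lines end inside the band because the members were chosen so, and the high-dose lines cross one another, with 23 members lower and the others higher at 33 h than at 9 h.

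At 33 h after the low dose the choice kept the members near the vehicle level. L was below 0 in 49 of the 55 members and at or below -0.2 in 23, and it lay between -0.1 and 0.1 in 12. The quartiles of L were -0.25 and -0.12 over the members and -0.12 and 0.09 over all transcripts tested. Among transcripts with at least 5 TPM in both vehicle groups, those nearest to each limit were as follows. ENSCPOT00000001457.3 was just inside the lower limit with an L of -0.294 and ENSCPOT00000047603.1 just outside it with -0.309. At the low dose and 9 h, ENSCPOT00000043254.1 was just inside the limit with -0.582 and ENSCPOT00000010578.3 just outside it with -0.575. At the high dose and 33 h, ENSCPOT00000034824.1 was just inside with -0.584 and ENSCPOT00000005164.2 just outside with -0.566. At the high dose and 9 h the member nearest to the limit was ENSCPOT00000030902.1 with -0.70. No transcript of that abundance missed this limit alone, whereas 91 missed only the low-dose limit at 9 h and 30 only the high-dose limit at 33 h.

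The most abundant member was ENSCPOT00000013540.3. Its TPM was 370, 516, 242, 310 and 359 in the vehicle animals at 9 h, 310, 272, 164, 146 and 123 after the low dose and 139, 241, 103, 189 and 91.6 after the high dose. At 33 h it was 267, 574, 479, 364 and 369 in vehicle animals, 341, 412, 321, 289 and 390 after the low dose and 191, 207, 182, 111 and 347 after the high dose. The low-dose animals at 33 h all lay within the vehicle range, and at the high dose 4 of 5 lay under it, with animal 57 at 347 inside it. L was -0.82 and -1.23 at 9 h for the low and high dose, and -0.23 and -0.98 at 33 h.

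ENSCPOT00000014267.3 separated the groups more fully. Its TPM was 141, 123, 107, 157 and 122 in vehicle animals at 9 h, 86.7, 89.4, 61.7, 52.7 and 53.3 after the low dose and 36.7, 76.6, 41.3, 64.9 and 29.8 after the high dose. At 33 h it was 111, 95.6, 113, 131 and 154 in vehicle animals, 83.9, 143, 120, 103 and 99.1 after the low dose and 45.9, 48.1, 75.2, 36.5 and 86.8 after the high dose. Every treated animal at 9 h and every high-dose animal at 33 h was under every vehicle animal of its time, and in the low-dose group at 33 h only animal 48 was. Its L was -0.90 for the low and -1.36 for the high dose at 9 h, and -0.13 and -1.03 at 33 h.

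ENSCPOT00000009188.3, a transcript of 213 bases, was further below vehicle at 33 h than at 9 h after the high dose. Its TPM was 174, 200, 208, 173 and 184 in vehicle animals at 9 h, 137, 158, 106, 53.2 and 134 after the low dose and 74.4, 144, 99.1, 170 and 82.5 after the high dose. At 33 h it was 195, 168, 159, 187 and 147 in vehicle animals, 80.8, 201, 190, 149 and 110 after the low dose and 46.4, 46.2, 58.2, 57.7 and 65.7 after the high dose. The high-dose animals overlapped the low-dose animals at 9 h and were all below them at 33 h. L at the high dose was -0.71 at 9 h and -1.63 at 33 h.

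ENSCPOT00000040721.1 and ENSCPOT00000022367.2 also had a lower L at 33 h than at 9 h with the high dose. For ENSCPOT00000040721.1, TPM at 33 h was 133 to 194 in vehicle animals, 110 to 205 after the low dose and 57.1, 46.6, 57.0, 49.6 and 96.5 after the high dose, and L went from -0.96 at 9 h to -1.49. For ENSCPOT00000022367.2, TPM at 33 h was 72.2 to 77.1 in vehicle animals, 42.1, 86.8, 84.1, 78.8 and 46.4 after the low dose and 26.0, 16.8, 25.6, 25.7 and 32.3 after the high dose, and L went from -0.73 to -1.52. In ENSCPOT00000022367.2 the low-dose group at 33 h was split, with animals 48 and 52 well under the vehicle range and the other 3 above it.

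**Figure D2:**
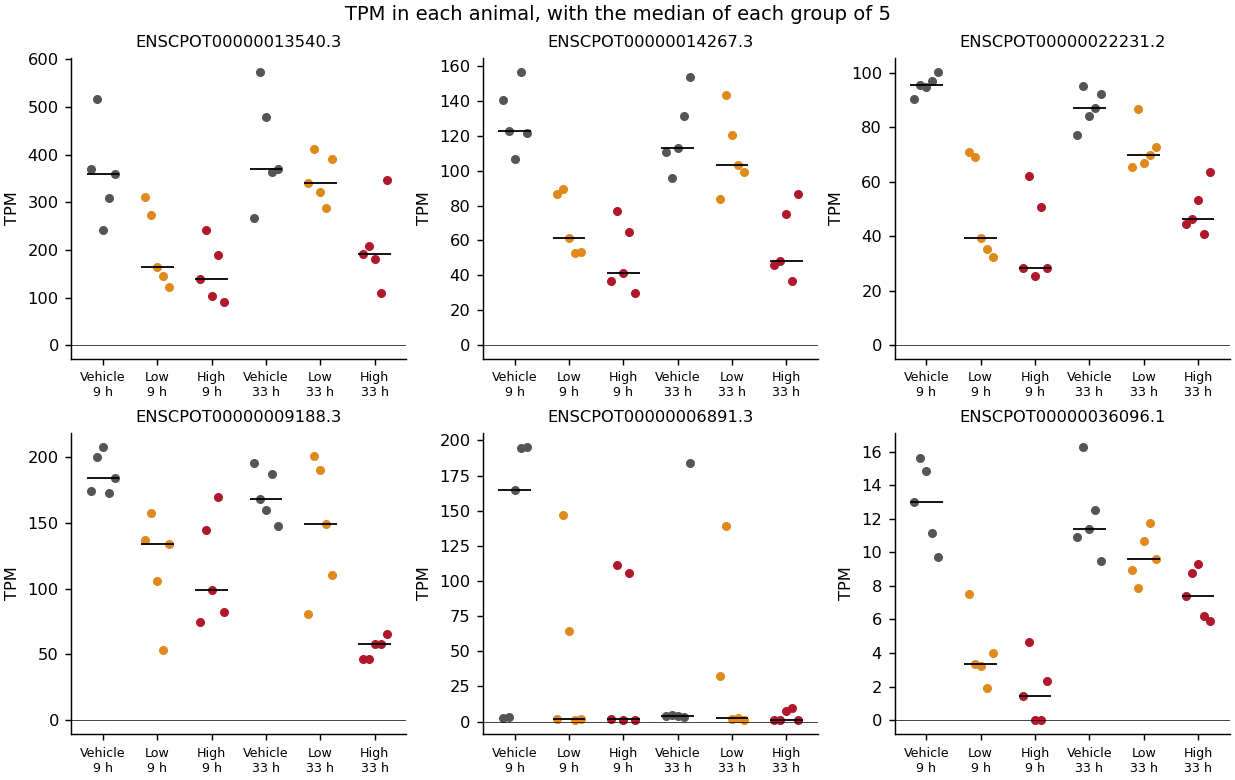
TPM (linear axis from 0) of 6 members in each of the 30 animals, grouped by treatment and time; points are animals in label order and the short line is the median of 5 animals. In ENSCPOT00000014267.3 and ENSCPOT00000022231.2 the high-dose points lie under the vehicle points at both times, while ENSCPOT00000006891.3 is near 0 in some animals and high in others of every group but the high-dose group at 33 h, where none is high.

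Of the 5 members with a paired gene, 4 shared another feature at 33 h after the low dose. ENSCPOT00000045833.1 was at 67.4, 120, 81.9, 87.6 and 72.6 TPM in animals 48 to 52, with vehicle animals at 100 to 109. ENSCPOT00000022231.2 was at 65.3, 86.5, 67.0, 69.6 and 72.6 TPM, with vehicle animals at 77.0 to 95.2. ENSCPOT00000042660.1 was at 43.6, 77.7, 48.1, 41.7 and 55.8 TPM, with vehicle animals at 58.2 to 75.3. ENSCPOT00000042690.1 was at 37.2, 57.1, 48.7, 47.0 and 44.6 TPM, with vehicle animals at 52.5 to 65.4. In each of these, 4 of the 5 low-dose animals were under the lowest vehicle animal and animal 49 was not. No other of the 55 members had 4 such animals, and why all 4 were among the paired members was not tested.

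Counted over the 55 members, no low-dose animal at 33 h was under the lowest vehicle animal in 7 members, 1 was in 11, 2 were in 17, 3 were in 16 and 4 were in 4. All 5 were in no member, a count that the limit of -0.3 on L favours. The same counts over all transcripts tested were 41.9% with none, 23.7% with 1, 15.3% with 2, 10.2% with 3, 6.29% with 4 and 2.65% with 5. With animal 49 left out, the median of L at 33 h after the low dose was -0.27 in place of -0.19, 32 of the 55 members were still inside the limits and 3 were at or below -0.58. With animal 48 left out the median was -0.10 and 53 members were inside.

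At 9 h, the vehicle animals were at 90.2 to 100 TPM for ENSCPOT00000022231.2, the low-dose animals at 70.8, 69.2, 39.4, 35.3 and 32.5 TPM and the high-dose animals at 28.5, 62.2, 25.5, 50.9 and 28.2 TPM. ENSCPOT00000045833.1 was at 81.3 to 108 TPM in vehicle, 51.2 to 82.2 TPM in low-dose and 35.0 to 81.8 TPM in high-dose animals. ENSCPOT00000042690.1 was at 57.3 to 67.8, 34.0 to 49.1 and 28.4 to 49.2 TPM in the same order. Treated animals of either dose overlapped the vehicle animals in ENSCPOT00000045833.1 and not in the other 2.

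The high-dose values of the paired members at 33 h were lower. ENSCPOT00000045833.1 was at 45.1, 48.0, 45.1, 47.3 and 63.8 TPM and ENSCPOT00000022231.2 at 44.3, 46.4, 53.2, 40.8 and 63.5 TPM in animals 53 to 57. ENSCPOT00000042660.1, the longest member with 5527 bases, was at 29.2, 24.8, 22.2, 25.7 and 45.7 TPM. These high-dose animals were all under every vehicle animal at 33 h. ENSCPOT00000033579.1 was scarce, with 3.67 to 5.04 TPM in vehicle animals at 33 h, 1.83, 5.43, 4.48, 3.89 and 3.24 TPM after the low dose and 1.42, 1.62, 2.48, 1.87 and 2.45 TPM after the high dose.

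The calls of edgeR are given beside the share of all tested transcripts called, and nothing is read from those for contrasts that the choice used. Of the 55 members, 53 had enough counts to be tested, and a call is a Benjamini-Hochberg adjusted p of at most 0.1 over 19729 transcripts. With the low dose at 9 h, 42 of 53 were called lower, beside 11.3% of all transcripts tested. After the high dose, 49 were called lower at 9 h, beside 15.9%, and 50 at 33 h, beside 24.1%. With the low dose at 33 h edgeR called 0 lower, beside 0.421% of all, and DESeq2 called 0, beside 3.42% of all. At an unadjusted p under 0.05 in edgeR, 1 member was lower, beside 7.67% of all. Between the doses at 33 h 44 were called lower with the high dose, beside 15.0%.

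Counted by animals, every treated animal was under every vehicle animal in 16 of 53 members with the low dose at 9 h, beside 2.09% of all transcripts tested. With the high dose this was so in 30 members at 9 h, beside 4.31%, and in 41 members at 33 h, beside 13.2%. With the low dose at 33 h it was so in none, beside 2.65%.

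The difference between the doses at 9 h is also given as a description, because the choice cut L of both doses at -0.58, and the low-dose limit left out transcripts that the high-dose limit kept. Nothing is read from its counts about the members. L was lower with the high dose in 48 of the 55 members, with a median difference of -0.23. The same order held for 301 of 347 other transcripts (86.7%) that were at or below -0.58 with both doses at 9 h, and for 59.2% of all transcripts tested. No member was called by edgeR in either direction, beside 0% of all transcripts tested, and DESeq2 called none of the members and 14 of all transcripts. An unadjusted p under 0.05 was found in 1 member, beside 3.23% of all transcripts tested. The median log2 fold change over the members was -0.24 and the median standard error 0.343. The 1 member was ENSCPOT00000007007.3, which was listed at 0 to 0.00366 TPM in the low-dose animals and at 0 to 0.317 TPM in the high-dose animals.

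Among members with at least 5 TPM in both vehicle groups, the lowest and highest differences in L between the doses at 9 h lay in members that varied between animals. ENSCPOT00000002452.3 had the lowest difference, with 141, 22.6, 37.8, 12.2 and 9.54 TPM after the low dose and 12.0, 42.5, 8.21, 45.2 and 8.28 TPM after the high dose. Its vehicle animals at 9 h were at 148, 26.5, 40.5, 138 and 126 TPM, so that 2 of them were inside the range of both treated groups. ENSCPOT00000033796.1 had the highest difference among them, with 4.29, 4.88, 2.01, 0.00372 and 0.169 TPM after the low dose and 1.54, 5.0, 1.15, 3.87 and 1.81 TPM after the high dose. Both sets of values overlapped between the doses.

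How far the members were below vehicle at 9 h differed between animals of one group, and these animals also differed over all transcripts. To give each animal a value in which it took no part, the choice was repeated without that animal, and the animal was compared with the mean of the vehicle animals of its time over the members then chosen. The median log2 ratio was -0.22 and -0.33 in low-dose animals 33 and 34 and -0.996, -1.32 and -1.13 in animals 35, 36 and 37. In the high-dose group at 9 h it was -0.42 and -0.69 in animals 39 and 41 and -1.37, -1.40 and -1.38 in animals 38, 40 and 42. Low-dose animals 35 to 37 were thus lower than high-dose animals 39 and 41, and the vehicle animals at 9 h lay between -0.12 and 0.02.

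The same split was present in other transcripts that the same 9 h limits had chosen. Over the 142 transcripts with falls in all 4 treated groups, the medians were -0.42 and -0.43 in animals 33 and 34 and -1.33, -1.32 and -1.5 in animals 35, 36 and 37. In the high-dose group they were -0.66 and -0.93 in animals 39 and 41 and -1.77, -1.87 and -1.90 in animals 38, 40 and 42. The medians over all transcripts tested did not follow this order. They lay between 0.03 and 0.10 in animals 33 to 37 and between -0.003 and 0.09 in animals 38 to 42. Over all transcripts, the chi-square per degree of freedom between the counts of a pair of animals was 17.3 for 33 and 34 and 45.3 to 62.5 between either and animals 35 to 37. It was 18.3 for animals 39 and 41 and 61.9 to 73.6 between either and animals 38, 40 and 42. Larger values were found between untreated animals at 9 h, such as 223 for vehicle animals 31 and 59. Low-dose animals 48 and 49 at 33 h had 106. Values of this size were thus not limited to the treated animals at 9 h. The split at 9 h was thus shared by the members and the 142 transcripts, both chosen with limits on these same animals. Its part in the values of L was not tested beyond leaving out 1 animal at a time.

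At 33 h the high-dose animals lay closer together and the low-dose animals apart. The left-out medians of the high-dose animals 53 to 57 were -0.95, -1.06, -0.82, -1.06 and -0.71. Those of the low-dose animals were -0.66 in animal 48, 0.00 in 49, -0.15 in 50, -0.20 in 51 and -0.61 in 52, and those of the vehicle animals lay between -0.05 and 0.15. The high-dose animals did not overlap the other 10 animals of that time. Animals 48 and 52 were below the vehicle animals and reached the level of the limit for a fall.

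**Figure D3:**
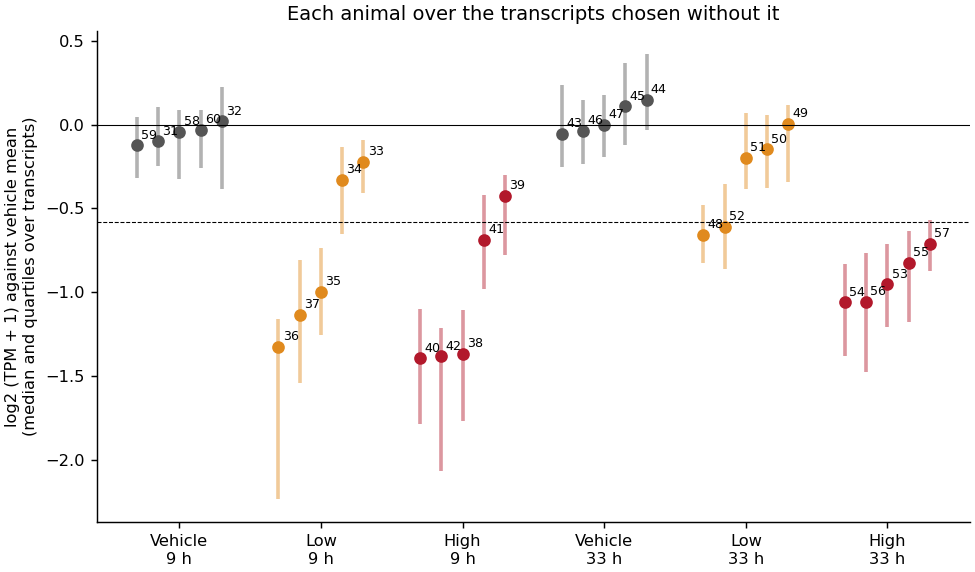
Median (point) and quartiles (bar) of the log2 ratio of TPM plus 1 to the vehicle mean of the same time plus 1, for each animal over the 33 to 78 transcripts chosen without it; numbers are animal numbers, sorted within each group, and the dashed line is -0.58. Animals of both doses at 9 h span a wide range, the low-dose animals 48 and 52 at 33 h lie near the dashed line, and the 5 high-dose animals at 33 h lie between -1.06 and -0.71.

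Over the 55 members themselves, 30 were at or below -0.58 in animal 48 and 22 in animal 52, but only 5 in animal 49 and 4 each in animals 50 and 51. Animal 48 had the lowest TPM of its group in 34 of the 55 members, beside 21.3% of all transcripts tested. The total counts of animals 48 and 52 were 28626476 and 28525454, and those of animals 49, 50 and 51 were 28450388, 28861404 and 25222566. Animals 48 and 52 were also the lowest of their group over the 142 transcripts that fell in all 4 treated groups, with medians of -1.46 and -1.21 beside -0.37, -0.76 and -0.89 in animals 49, 50 and 51. In the 9 h groups, animal 36 was lowest of the low-dose animals in 35 members, beside 27.2% of all transcripts tested. Animal 42 was lowest of the high-dose animals in 27, beside 24.8%, while animals 39 and 41 were lowest in none, beside 13.1% and 32.4%. At 33 h, vehicle animal 43 was lowest of its group in 24 members, beside 21.8%, and high-dose animal 54 in 25, beside 17.5%.

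Relative to the group mean, the spread between animals was wider in treated than in vehicle groups, in the members as in the other transcripts with the 3 falls. The choice itself kept low treated means, and a low mean raises this relative measure. The median coefficient of variation over the members was 19.1% in vehicle, 38.3% in low-dose and 43.2% in high-dose animals at 9 h, and 18.0%, 30.4% and 23.9% at 33 h. Over all transcripts tested the medians were 15.5%, 16.0% and 17.3% at 9 h and 12.8%, 16.1% and 12.4% at 33 h. Over the 142 transcripts with falls in all 4 treated groups they were 17.1%, 49.7% and 55.2% at 9 h and 16.3%, 44.8% and 35.1% at 33 h, and over the 107 between the limits 15.2%, 39.3% and 42.9% at 9 h and 14.3%, 28.8% and 22.5% at 33 h. ENSCPOT00000034824.1, near the middle of the abundance range, was more spread than in vehicle animals after both doses at 9 h, and at 33 h after the low but not the high dose. It was at 15.6 to 19.3 TPM in vehicle animals at 9 h, 7.72 to 16.9 after the low dose and 6.40 to 13.8 after the high dose, and at 33 h it was at 16.0 to 19.3, 13.2 to 16.9 and 10.1 to 11.8. In ENSCPOT00000013540.3, by contrast, the standard deviation at 9 h was 101 TPM in vehicle, 83.0 in low-dose and 62.3 in high-dose animals.

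**Figure D4:**
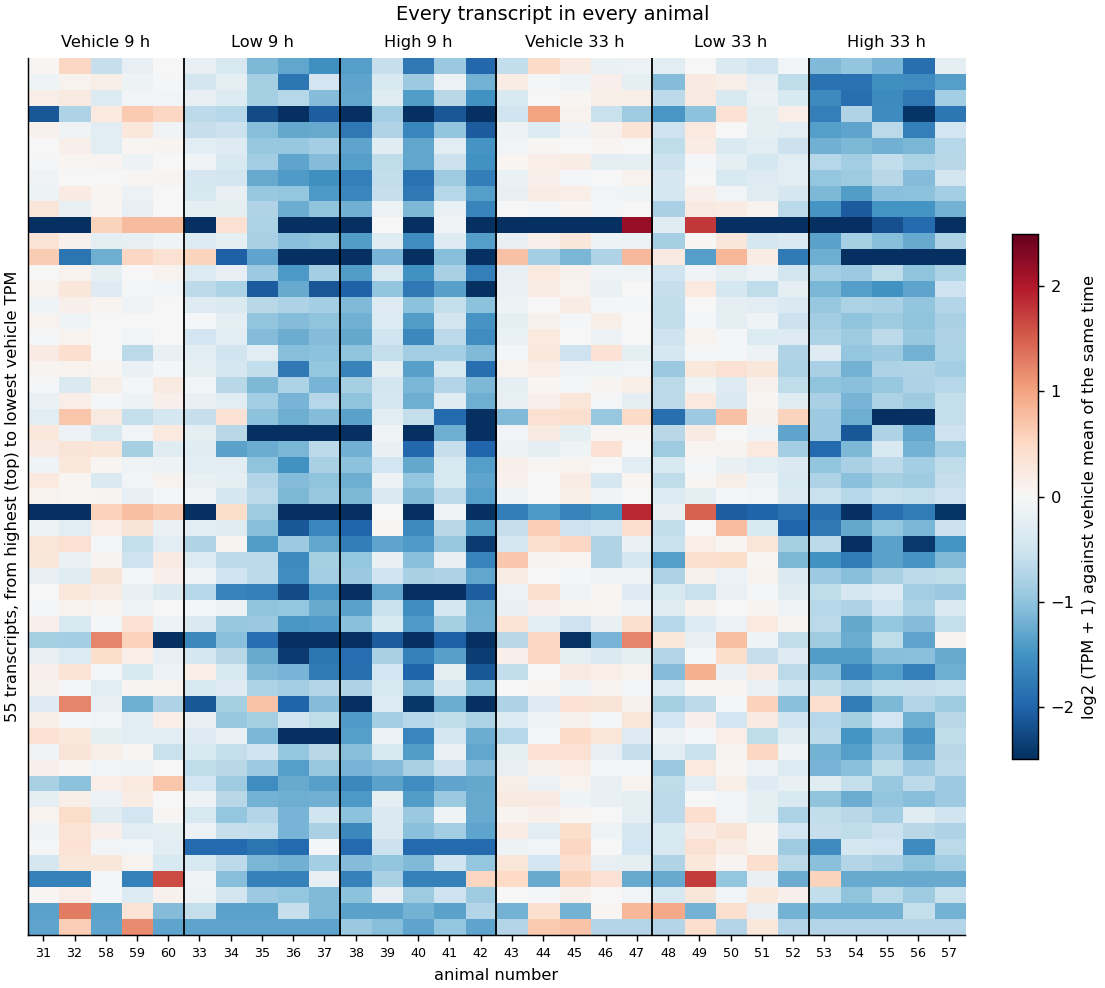
Log2 ratio of TPM plus 1 to the vehicle mean of the same time plus 1 (colour, blue for lower, cut at 2.5 in either direction) for the 55 transcripts (rows, by vehicle TPM) in the 30 animals (columns, by group). Animals 33, 34, 39 and 41 are paler than the others of their groups, and 2 rows are dark blue in animals of every group, vehicle groups included.

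Both the low-dose and the vehicle levels moved between the times. The mean TPM of low-dose animals was higher at 33 h than at 9 h in 47 of the 55 members, with a median log2 ratio of TPM plus 1 of 0.39, beside -0.01 over all transcripts tested. The mean TPM of vehicle animals was lower at 33 h than at 9 h in 47 members, with a median log2 ratio of -0.15, beside 0.09 over all transcripts tested. In 19 of the 55 members the drop of the vehicle level was larger than the rise of the low-dose level. The animals of the 2 times were different animals, and the choice itself favours a high vehicle mean at 9 h and a high low-dose mean at 33 h.

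In 8 members the low-dose TPM did not rise between the times at all. An example was ENSCPOT00000024300.2, with a log2 ratio of 33 h to 9 h of -0.30 in low-dose and -0.63 in vehicle animals. At the other end, ENSCPOT00000026255.2 had the largest rise in low-dose animals, 1.26 on the log2 scale, with a vehicle ratio of 0.13. In ENSCPOT00000042660.1 the low-dose ratio was 0.83 and the vehicle ratio -0.13, and in ENSCPOT00000014267.3 they were 0.67 and -0.10. ENSCPOT00000024300.2 and ENSCPOT00000026255.2 were picked after their values were seen.

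**Figure D5:**
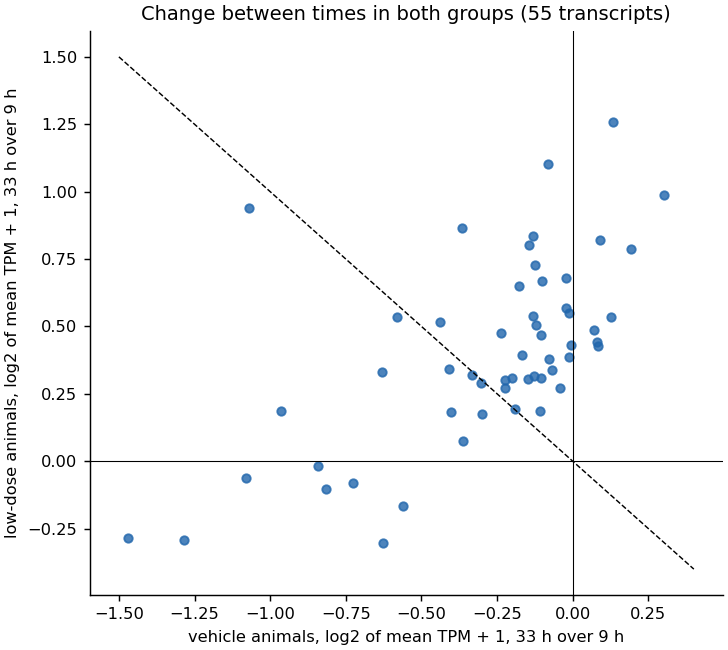
For each of the 55 members, the log2 ratio of mean TPM plus 1 at 33 h to that at 9 h in vehicle animals (horizontal axis) and in low-dose animals (vertical axis). On the dashed diagonal a vehicle drop equals a low-dose rise; 19 members lie below it, and 8 members lie at or under a low-dose ratio of 0.

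In a pair of members, TPM was either high or near 0 in an animal, in vehicle and treated groups alike. ENSCPOT00000006891.3 was at 2.66 and 3.33 TPM in vehicle animals 31 and 32 and at 165, 194 and 195 TPM in vehicle animals 58, 59 and 60. At 33 h, 4 vehicle animals were at 3.20 to 4.56 TPM and animal 47 was at 184 TPM. It was high in 10 animals, at 32.1 to 195 TPM, and at 0.965 to 9.80 TPM in the other 20. ENSCPOT00000002926.3 was high in the same 10 animals, at 8.32 to 42.5 TPM, and at 0.539 to 2.96 TPM in the other 20.

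The 10 animals were 3 of 5 vehicle, 2 of 5 low-dose (34 and 35) and 2 of 5 high-dose animals (39 and 41) at 9 h, and 1 vehicle animal (47), 2 low-dose animals (48 and 49) and no high-dose animal at 33 h. The high-dose group at 33 h, where L was -2.98 for ENSCPOT00000006891.3 and -2.06 for ENSCPOT00000002926.3, held no high animal, and its vehicle group held 1. No other transcript of the 19729 tested had all of these 10 animals above all of the other 20. Because similar sequences can share reads in this kind of quantification, the 2 transcripts may not be independent measurements, and their sequences were not compared here.

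ENSCPOT00000036203.1, a transcript of 249 bases, also differed between vehicle animals. It was at 38.4 and 98.8 TPM in vehicle animals 31 and 32 and at 200, 267 and 242 TPM in animals 58 to 60, and at 45.8 to 174 TPM in vehicle animals at 33 h. After the low dose it was at 106, 102, 34.9, 27.0 and 39.7 TPM at 9 h and at 30.9, 42.0, 110, 74.1 and 96.3 TPM at 33 h, so the low-dose ranges at both times were close. Its L with the low dose was -1.43 at 9 h and -0.28 at 33 h, with a log2 ratio of 33 h to 9 h of -0.96 in vehicle and 0.19 in low-dose animals. In 11 of the 55 members more than 50% of the summed TPM of at least 1 group came from 1 animal.

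The change of the high-dose effect between 9 and 33 h was computed with edgeR as the difference of both contrasts with vehicle, after the data were seen. The choice required a fall at both times, so the calls are a description and nothing is read from their number. Of the 53 members tested, 1 was called lower at 33 h, beside 10.3% of all transcripts tested, and 1 was called higher, beside 10.2%. ENSCPOT00000009188.3 was the member called lower, with a log2 difference of -0.89 (standard error 0.276). ENSCPOT00000036096.1 was the member called higher, with 2.32 (standard error 0.863). No member was called higher when any 1 of 10 of the 20 animals was left out, namely vehicle animals 31, 43, 45, 46, 47 and 58 and high-dose animals 38, 53, 54 and 55.

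The TPM of ENSCPOT00000036096.1 was 13.0, 15.6, 14.8, 11.2 and 9.74 in vehicle animals at 9 h, 7.5, 3.38, 3.22, 1.94 and 4.02 after the low dose and 1.45, 4.66, 0, 0 and 2.32 after the high dose. At 33 h it was 9.49 to 16.3 in vehicle animals, 7.88 to 11.8 after the low dose and 7.42, 8.74, 9.30, 6.20 and 5.93 after the high dose. The high-dose animals at 33 h were above all high-dose animals at 9 h and still below all vehicle animals. High-dose animals 40 and 41 were listed at 0 at 9 h, so the size of its fitted change depends on how zeros are treated.

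Membership was sensitive to single animals. Repeating the choice 30 times, each time without another animal, gave 33 to 78 transcripts, and 7 of the 55 members were in all 30 lists. These were ENSCPOT00000014267.3, ENSCPOT00000013323.3, ENSCPOT00000026129.2, ENSCPOT00000044682.1, ENSCPOT00000033796.1, ENSCPOT00000015809.3 and ENSCPOT00000021069.2. With group medians in place of means, 76 transcripts were chosen, of which 32 were among the 55. With only vehicle animals 58 to 60 as the 9 h controls 43 transcripts were chosen, 38 of them members, and with only animals 31 and 32 74 were chosen, 48 of them members.

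The members were less far below vehicle than the 142 transcripts with falls in all 4 treated groups. The median L of those 142 was -0.87 (low dose) and -1.32 (high dose) at 9 h and -2.05 (high dose) at 33 h, beside -0.72, -0.96 and -0.89 in the members. From 9 to 33 h after the high dose, L of the 142 moved by a median of -0.60, and L of the members by 0.05. The 107 transcripts between the limits lay between both, with a median L at 33 h of -1.30 for the high and -0.47 for the low dose. These are values of the contrasts that sorted the transcripts and were not tested.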

How the data were processed

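Kidney RNA of 30 guinea pigs in 6 groups of 5 was analysed. Groups were taken from the sample labels. The authors pseudo-aligned paired reads with kallisto (0.42.4 in the submitters' processing notes) to the Ensembl guinea pig transcriptome, whose release is not given in the sources used here. The deposited tables list 25824 transcripts with an estimated count and a TPM per animal. Counts were deposited without normalization, and the authors' TPM values are scaled for effective length and library total. Reads shared by similar transcripts are divided between them by estimation.

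The members were chosen on TPM with a pseudocount of 1. The members and lists were chosen with earlier results of these data known. For tests, counts were rounded to integers, filtered with filterByExpr over all 30 animals (19729 of 25824 transcripts remained) and scaled by TMM. Each pair of groups was fitted with edgeR 4.0.16 (R 4.3.3, quasi-likelihood test, two-sided, Benjamini-Hochberg over all transcripts tested, threshold 0.1 as in the study). P-values weigh the difference between groups against the spread between animals within the groups compared, an estimate that also draws on the other transcripts. Total counts were 23134713 to 36072327 per animal. Members with few counts are measured less precisely than the rest, and TPM alone does not mark them, since length matters too. ENSCPOT00000009188.3, with 213 bases and 179 TPM in vehicle animals, had a mean of 210 estimated counts per animal. ENSCPOT00000033579.1, with 3633 bases and 4.87 TPM, had 285. In animal 59, 13.7% of counts fell on 1 transcript, ENSCPOT00000025542.2, and in animal 58 4.76%. A large share on 1 transcript lowers the other TPM values of an animal. Both animals belong to the 9 h vehicle group, against which L at 9 h was taken. Their TMM factors were 0.82 (59) and 0.89 (58), beside 0.95 to 1.08 in the other animals. The part of this in L was not tested beyond the settings given below.

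Named were the 6 most abundant members, the 6 with the lowest L with the high dose at 33 h (vehicle at least 5 TPM), the members paired with a gene, and, with the same vehicle minimum, those nearest to each limit and those with the extreme differences between doses at 9 h. Members outside this rule are said to be so or stand in a complete short list. Alternatives were other pseudocounts, limits, summaries and scalings, DESeq2 1.42.0, one fit over all animals, no filter, and leaving out each animal in turn. Planned marker and pathway lists were not used, since transcripts were not matched to gene names, and no sequences were at hand.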

Additional observations from a re-analysis of the deposited data

Results flagged for a closer look

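In each group of 5 animals, the highest or lowest value was compared with its nearest neighbour by Dixon's rule, over 96 groups of values. These were the TPM of 14 named members, the total estimated counts and the left-out medians, and the other members were not checked. Of these, 9 were flagged, and chance alone flags about 1 in 20 groups, which is 4.8 here. Single animals stood far above the rest of their group in ENSCPOT00000006891.3, with 184 TPM in vehicle animal 47 at 33 h (next 4.56) and 139 TPM in low-dose animal 49 at 33 h (next 32.1). The same animals stood apart in ENSCPOT00000002926.3, with 38.1 TPM in animal 47 (next 2.96) and 28.5 TPM in animal 49 (next 8.32). ENSCPOT00000002452.3 was at 141 TPM in low-dose animal 33 at 9 h (next 37.8) and at 18.8 TPM in high-dose animal 53 at 33 h (next 6.07). High-dose animal 57 at 33 h was above its group in ENSCPOT00000040721.1, with 96.5 TPM (next 57.1), and in ENSCPOT00000045833.1, with 63.8 TPM (next 48.0). The total estimated count of low-dose animal 51 at 33 h, 25222566, was below that of the others of its group (next 28450388).

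In 2 members edgeR called the difference between the high-dose effects at 9 and 33 h. This test was added after the data were seen, and the choice of members bounded both effects, so the calls are a description. The log2 effect at 33 h minus that at 9 h was -0.89 in ENSCPOT00000009188.3 and 2.32 in ENSCPOT00000036096.1, and the latter call was lost without any 1 of 10 of the 20 animals.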

How the results depend on the processing

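The number of members, 55, depended on the settings of the choice. It was 111 with a pseudocount of 0.1 (49 of the 55 among them), 29 with a pseudocount of 5 (24), 7 with falls of at least 1, 32 with limits of 0.2 for the low dose at 33 h, and 118 with TMM-scaled CPM in place of TPM (49). Leaving out 1 animal gave 33 to 78, with 33 without low-dose animal 36 at 9 h and 33 without low-dose animal 49 at 33 h. Over the 10 fits that leave out 1 animal, members called lower numbered 30 to 45 with the low dose at 9 h, 38 to 50 with the high dose at 9 h, 49 to 50 with the high dose at 33 h, 39 to 49 for high against low dose at 33 h, and 0 to 0 between the doses at 9 h. With the low dose at 33 h they numbered 0 to 4, with 4 only without animal 49, where 5.32% of all transcripts tested were called lower. Without vehicle animal 43 or 47 this share was 0%. With the low dose at 9 h the share of all called lower ran from 6.46% without animal 35 to 14.5% without animal 33. The counts of members stayed within 1.5 times under the 5 other settings tried for each. For the change of the high-dose effect between the times, leaving out 1 of 20 animals gave 1 to 3 members called lower and 0 to 5 called higher. The count called lower was 2 without high-dose animal 38, and 3 without 42 or 57. The count called higher was 5 without high-dose animal 39, 2 without 41 or vehicle animal 60, and 0 without vehicle animals 31, 43, 45, 46, 47 or 58 or high-dose animals 38, 53, 54 or 55. The left-out value of the 9 h vehicle animals, with a median of -0.04, was -0.16 as a mean and -0.13 with a pseudocount of 0.1. The cause of these changes was not tested. No paired analysis was possible because the animals' numbers are not shared between groups.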
